A study of Mus musculus with 8 samples.

Results

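The 78 genes described here encode the proteins of the cytosolic ribosome. They were chosen by symbol, as the rows of the count table named Rpl or Rps with a number and at most the letter a or x, together with Rplp0, Rplp1, Rplp2, Rpsa, Rps3a1 and Fau, and without pseudogene rows; they are 78 of the 38406 genes in the table. Of these, 46 belong to the large subunit and 32 to the small subunit, with Fau counted among the latter. RNA sequencing was done on regulatory T cells (Tregs, the CD4 T cells that carry Foxp3 and restrain immune responses) sorted from muscle and from spleen of male C57BL/6 mice. All mice, spleen donors included, had been injected with cardiotoxin, a snake venom component that kills muscle fibres, with 0.9 µg going into each of the tibialis anterior, quadriceps and gastrocnemius, and tissues were taken 4 days later. The young groups (spleen and muscle) came from mice 2 months old and the aged groups from mice older than 6 months, giving 4 groups with 2 libraries each, and no transgene or mutation is named in the labels. Each library was made from RNA of 1500 cells sorted in 2 passes, amplified by in vitro transcription for 9 hours and by 15 cycles of PCR, and the sort gate is not given in the sources used here. Libraries of the same group are called biological duplicates, but it is not stated that they came from separate animals. The p-values therefore reflect the spread among these libraries alone. In the main fit this spread was taken for each gene over all 4 groups together, although replicates were less alike in muscle than in spleen.

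A ribosome holds 1 copy of nearly every one of these proteins, and cells make them in step with ribosomal RNA, so that the genes are usually expressed at high and matched levels. In mammals most of their messenger RNAs begin with a cytosine followed by a run of pyrimidines, the terminal oligopyrimidine (TOP) start, through which the kinase complex mTORC1 and the RNA-binding protein Larp1 control how strongly they are translated and how stable they are. T cells raise ribosome production when they are activated and grow, and Tregs of mice need mTORC1 to work as suppressor cells.

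To show where pyrimidine runs lie in some of these genes and are absent in others, start windows are printed from the RefSeq promoter table (GRCm38.p6). Each holds the 30 bases around the annotated start (15 before it and 15 from it onward). The windows are those of genes named below for the largest falls with age or between tissues in young mice. They also take in those named for the smallest change with age in spleen or between tissues in young mice. A window is printed only where the table gives exactly 1 start. All are given 5′ to 3′ on the strand of the gene, and capitals mark the pyrimidine runs searched for, which were CTTTT and its variant CTTTC, then CTTCC and the similar CTTCT, and last CCTTT together with CTCTT. The group of large changes comes first and holds Rplp2, Rps7, Rps28, Rpl4, Rpl35, Rpl12, Rps16 and Rps27.
Rplp2, chr7:141447636-141447665, plus strand: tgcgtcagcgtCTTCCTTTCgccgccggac
Rps7, chr12:28635939-28635968, minus strand: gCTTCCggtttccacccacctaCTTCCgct
Rps28, chr17:33824548-33824577, minus strand: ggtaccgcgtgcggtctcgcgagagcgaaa
Rpl4, chr9:64173372-64173401, plus strand: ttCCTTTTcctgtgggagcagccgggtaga
Rpl35, chr2:39005117-39005146, minus strand: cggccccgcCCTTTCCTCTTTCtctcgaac
Rpl12, chr2:32961697-32961726, plus strand: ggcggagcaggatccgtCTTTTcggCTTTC
Rps16, chr7:28350674-28350703, plus strand: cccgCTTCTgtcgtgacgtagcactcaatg
Rps27, chr3:90213634-90213663, minus strand: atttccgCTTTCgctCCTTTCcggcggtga
A gene with a large change in 1 comparison could have a small one in another, as Rps27 had with age in spleen (-0.29). Rps2 and Rps6, named below for values above 0 with age in muscle, hold a run and are not printed. Named for the smallest changes with age in spleen or between tissues in young mice are Rpl24, Rpl26, Rpl37 and Rpl41.
Rpl24, chr16:55966260-55966289, plus strand: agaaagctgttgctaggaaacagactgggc
Rpl26, chr11:68901551-68901580, plus strand: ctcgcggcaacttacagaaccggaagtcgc
Rpl37, chr15:5116598-5116627, plus strand: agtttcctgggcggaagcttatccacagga
Rpl41, chr10:128549154-128549183, minus strand: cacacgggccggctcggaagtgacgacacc
Of the 78 genes, 58 matched the table, and 33 of them (56.9%) held such a run in the window on their own strand. The share over all 27025 genes of the table was 21.9%. On the opposite strand the runs were found in 20.7% of the matched ribosomal protein genes and in 23.6% of all genes. The motif CCGGAAG, a binding sequence of ETS factors such as GABP, was found on either strand in 41.4% of the matched genes, from 250 bases before to 50 after the start, and in 9.93% of all genes. AAGATGG, the core of the YY1 motif, was found in 17.2% against 7.28%. The 250 bases before the start are shown for Rplp2 and Rpl41, which had the largest and one of the smallest tissue differences in young mice, with log2 fold changes of -1.84 and -0.21; each holds CCGGAAG, in capitals, on the opposite strand in Rplp2 (read here as CTTCCGG) and on the gene's strand in Rpl41.
Rplp2, chr7:141447401-141447650, plus strand: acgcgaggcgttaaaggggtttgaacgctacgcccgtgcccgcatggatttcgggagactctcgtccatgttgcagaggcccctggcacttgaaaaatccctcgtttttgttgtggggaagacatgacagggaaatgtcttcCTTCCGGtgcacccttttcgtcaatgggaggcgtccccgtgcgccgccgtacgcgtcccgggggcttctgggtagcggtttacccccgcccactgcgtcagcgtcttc
Rpl41, chr10:128549169-128549418, minus strand: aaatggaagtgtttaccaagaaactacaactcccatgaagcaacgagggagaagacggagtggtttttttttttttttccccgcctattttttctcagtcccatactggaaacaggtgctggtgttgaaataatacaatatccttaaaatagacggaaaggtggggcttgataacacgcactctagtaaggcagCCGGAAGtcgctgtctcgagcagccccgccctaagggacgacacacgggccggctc
The presence of these letters is a description of the windows and does not show that a factor binds there.

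Library totals ran from 1969982 to 4008622 counts. The Treg and T cell markers (9 genes, Foxp3, Il2ra, Ctla4, Ikzf2 and Cd4 among them) had a count in every library and summed to 3693 to 5045 CPM (counts scaled to library size after TMM, a correction for composition), and those of muscle fibres to 7.11 to 24.0 CPM. Foxp3 itself stood at only 15.4 to 41.5 CPM, and Ctla4 at 481 to 595 CPM in spleen and 1330 to 2471 CPM in muscle. Other T cell markers in the sum went the other way. Cd3d stood at 678 to 739 CPM in spleen and 373 to 541 CPM in muscle, and Cd3g at 547 to 662 and 368 to 488 CPM. At an edgeR adjusted p under 0.05, 2 of the 9 were lower and 1 higher in muscle in young mice. In aged mice 3 were lower and 2 higher. Drawn down to the same depth, spleen libraries held 16646 and 17082 genes with a count in young and 18590 and 18235 in aged mice, and muscle libraries 18099 and 19361 in young and 19215 and 21109 in aged mice, so that by group mean the number of genes detected moved opposite to the ribosomal protein level described below, although young muscle replicate 1 held fewer genes than either aged spleen library. Replicate libraries were less alike in muscle (Spearman 0.893 and 0.920 over 14772 genes in young and aged mice) than in spleen (0.965 and 0.967). In each muscle group, replicate 1 was higher than replicate 2 for 77 of the 77 measured ribosomal protein genes, by a median of 0.29 on the log2 scale in young and 0.33 in aged muscle, and aged muscle replicate 2 was the lowest library for 70 of them. Counts of called ribosomal protein genes and their medians are also given with 1 library left out. Of single genes, only Rps7, Rps16 and Rps27 have the range over such settings printed, and the other gene lists have none.

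All but 1 of the 78 genes had counts in every library and passed the filter on low counts. Rpl13 (chr8:123102350-123105244, GRCm38) was listed at 0 in all 8 libraries. The predicted gene Gm20388, annotated on the same strand at chr8:119910841-124345722, spans it and held 6048 to 14654 counts, which placed it among the 10 most-counted genes; in the GENCODE M21 annotation it shares 0% of the exonic bases of Rpl13. The annotation used for counting is not given in the sources used here, so these counts were not assigned to Rpl13. The 78 genes lie on 20 chromosomes, 14 of them on chromosome 7 and 4 (Rpl10, Rpl36a, Rpl39 and Rps4x) on the X chromosome.

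Ribosomal protein genes took 18.2% and 17.3% of all counts in young and 13.6% and 13.2% in aged spleen, and 11.9% and 10.6% in young and 10.4% and 8.95% in aged muscle. For spleen the group means were 17.7% ± 0.603 (SD, n = 2) in young and 13.4% ± 0.298 in aged mice, and for muscle 11.3% ± 0.931 and 9.65% ± 0.996. The groups did not overlap in any pair, although the lowest young muscle library and the highest aged muscle library lay close together. The share is a composition, given with no test, because a fall in these genes and a rise in others cannot be told apart in it, and in bulk libraries fewer cells of a type and less RNA per cell cannot be told apart either. Counts of large subunit genes exceeded those of small subunit genes 1.08-fold in each young and 1.14- and 1.11-fold in the aged spleen libraries, and 1.18- and 1.15-fold in the young and 1.15-fold in each of the aged muscle libraries. When the 10 most-counted genes were left out of both the sum and the total, the means were 14.4% and 10.9% in young and aged spleen and 8.59% and 7.39% in young and aged muscle.

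**Figure D1:**
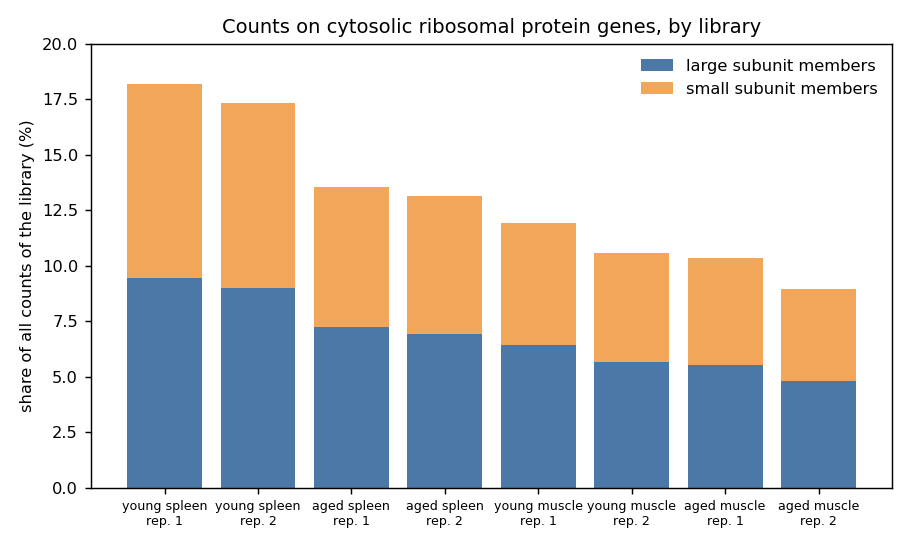
Share of all counts of each library (y axis, percent) that fell on the large subunit genes (blue) and small subunit genes (orange), for the 8 libraries on the x axis. The share steps down from 18.2% in young spleen replicate 1 to 8.95% in aged muscle replicate 2.

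The genes are among the most highly expressed in these Tregs: 50 of them were among the 100 most-counted genes. Mean levels over the 8 libraries ran from 272 CPM for Rps15a to 7563 CPM for Rpsa, with a median of 1392 CPM, against a median of 21.8 CPM for all 14772 genes tested. Per kilobase of exon, they ran from 43.4 CPM for Rps15a to 7991 CPM for Rplp1, a protein of the ribosomal stalk, with a median of 677 CPM. Comparing genes on this scale assumes that counts rise with exon length, which was not tested. Next below Rplp1 came Rps3a1 at 4301, Rpl36 at 4106, Rpl41 at 4041 and Rpl38 at 3364 CPM per kilobase. The length used is that of all annotated exons together, which lowers the value of genes with many annotated transcripts, such as Rps15a with 6270 bases.

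Muscle Tregs of young mice had lower levels of nearly all ribosomal protein genes than spleen Tregs of the same age. Of the 77 tested, 67 fell and 0 rose at an adjusted p under 0.05 (edgeR's quasi-likelihood test with Benjamini-Hochberg adjustment over all 14772 genes, here the meaning of a call), while 10.9% of all genes tested fell and 11.4% rose. The median log2 fold change of the 77 genes was -0.89, that of all genes 0.07, and 77 of 77 lay below the latter. By edgeR 0 of the genes were higher even at an unadjusted p under 0.05, in this comparison, that of tissue in aged mice and those of age in spleen and in muscle, and DESeq2 called 0 higher in the same 4 comparisons. The falls took in 37 of the 45 large subunit genes and 30 of the 32 small subunit genes. The libraries of the groups did not overlap, muscle below spleen, for 76 genes, as for 30% of all genes. Among 500 other genes with a mean of at least 272 CPM, the level of the lowest of the ribosomal protein genes, 23.2% fell, with a median of -0.003.

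**Figure D2:**
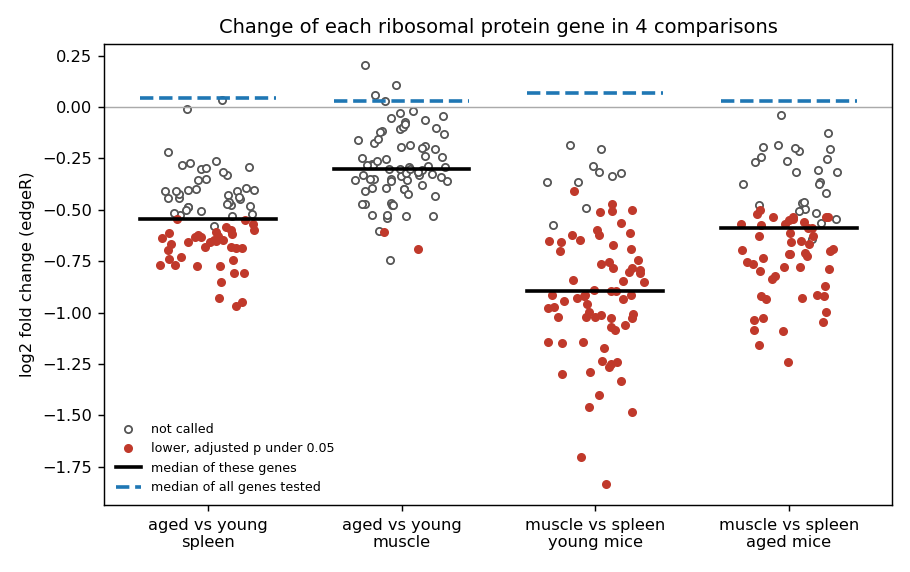
Log2 fold change (y axis) of each of the 77 tested genes in the comparisons named on the x axis; filled red points passed the test as lower, open points did not, and bars give the medians of the ribosomal protein genes (solid) and of all genes tested (dashed). The medians of the ribosomal protein genes lie at -0.54, -0.30, -0.89 and -0.59 from left to right.

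The stalk of the large subunit, which recruits the translation factors that hydrolyse GTP, is built from Rplp0 at its base and from Rplp1 and Rplp2, and its members differed widely. Rplp2 stood at 2364 and 1989 CPM in young and 1387 and 1212 CPM in aged spleen, and 673 and 544 CPM in young and 656 and 509 CPM in aged muscle. Each muscle library was below each spleen library, and young spleen was the highest group. The tissue difference in young mice, a log2 fold change from spleen to muscle of -1.84 ± 0.17 (SE; edgeR adjusted p = 2.8e-06), was the largest fall of any of the 77 genes, and that in aged mice was -1.16 ± 0.17 (SE; edgeR adjusted p = 0.00030). Rplp1 stood at 5249 and 5306 CPM in young and 3877 and 3551 CPM in aged spleen, and 4213 and 3232 CPM in young and 3508 and 2964 CPM in aged muscle. Here aged spleen and young muscle overlapped, and the tissue difference was -0.50 ± 0.15 (SE; edgeR adjusted p = 0.030) in young and -0.20 ± 0.15 (SE; edgeR adjusted p = 0.38) in aged mice. Rplp0 stood at 1961 and 2226 CPM in young and 1565 and 1524 CPM in aged spleen, and 1726 and 1528 CPM in young and 1529 and 1131 CPM in aged muscle. Its tissue differences were -0.36 ± 0.16 (SE; edgeR adjusted p = 0.11) in young and -0.22 ± 0.16 (SE; edgeR adjusted p = 0.35) in aged mice, and neither passed the test. The ratio of Rplp1 to Rplp2 counts, looked at after these values were seen and therefore not tested, was 2.22, 2.67, 2.80 and 2.93 in the 4 spleen libraries and 6.26, 5.94, 5.35 and 5.83 in the 4 muscle libraries. The ratio of Rplp1 to Rplp0 counts lay between 2.12 and 2.68 in all 8. In the GENCODE M21 annotation 6.61% of the exonic bases of Rplp2 are shared with the small nucleolar RNA gene Snora52.

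**Figure D3:**
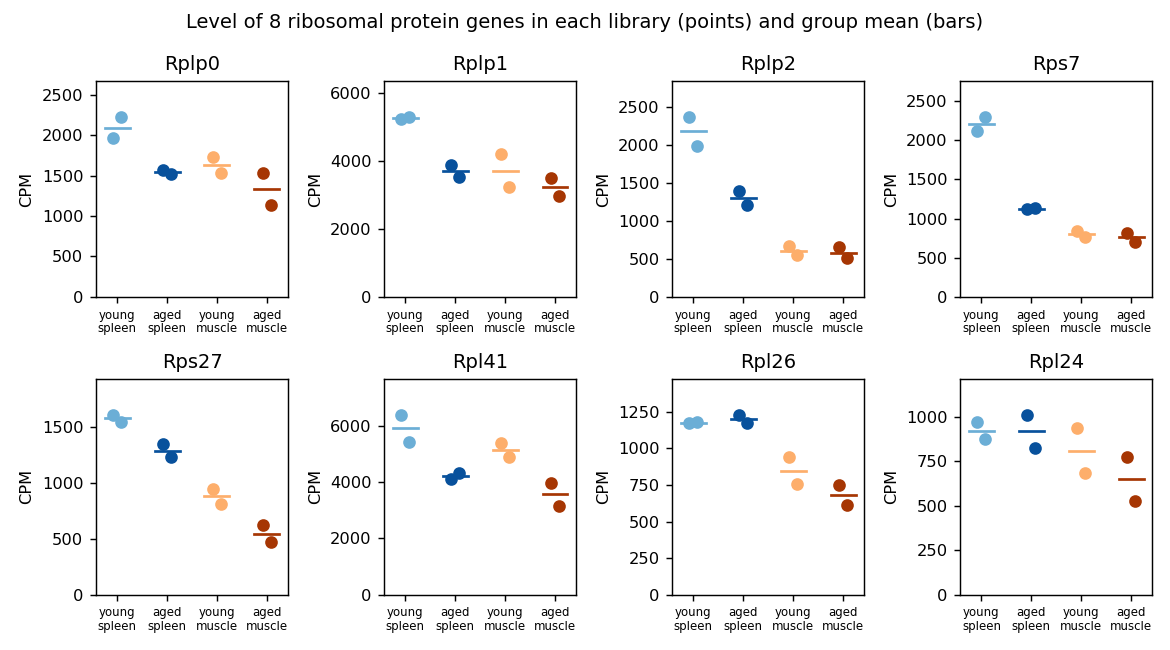
Level in CPM (y axis, from 0) of 8 genes in each library (points), with the group mean as a bar, by tissue and age. Rplp2, Rps7 and Rps27 fall from spleen to muscle, while Rplp0, Rplp1, Rpl41 and Rpl24 overlap more between tissues and Rpl26 has means of 1176 and 1204 CPM in young and aged spleen.

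Other large falls from spleen to muscle in young mice came from the small subunit. Rps20 had 2645 and 2459.9 CPM in young and 1491 and 1193 CPM in aged spleen, and 1077 and 743 CPM in young and 1009 and 747 CPM in aged muscle. Its young spleen libraries stood apart from all others, and the difference was -1.49 ± 0.20 (SE; edgeR adjusted p = 0.00013). Rps7, which takes part in small subunit assembly, had 2117 and 2295 CPM in young and 1122 and 1129.8 CPM in aged spleen, and 837 and 767 CPM in young and 820.1 and 697 CPM in aged muscle. Young spleen stood far above the 6 other libraries, and the difference was -1.46 ± 0.14 (SE; edgeR adjusted p = 4.5e-06). In the large subunit, Rpl12, which sits at the base of the stalk, had 2200.3 and 2078 CPM in young and 1254 and 1309 CPM in aged spleen, and 830.0 and 788 CPM in young and 842 and 652 CPM in aged muscle. Muscle libraries of the 2 ages overlapped and the difference in young mice was -1.40 ± 0.15 (SE; edgeR adjusted p = 1.2e-05). Rpl30 changed by -1.33 on the log2 scale, from 1592 ± 91.5 CPM (SD, n = 2) in young spleen to 631 ± 160.3 CPM in young muscle.

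Among the genes that moved least between the tissues in young mice were Rpl24 and Rpl41. Rpl24, whose loss of function underlies the belly spot and tail mouse mutant, had 969 and 873 CPM in young and 1010.4 and 822 CPM in aged spleen, and 933 and 684 CPM in young and 775 and 524 CPM in aged muscle. The 4 groups overlapped with their neighbours, and the tissue difference was -0.19 ± 0.20 (SE; edgeR adjusted p = 0.53) in young and -0.50 ± 0.20 (SE; edgeR adjusted p = 0.098) in aged mice. In the annotation 47.0% of the exonic bases of Rpl24 are shared with the gene Gm28037, so its counts could have been split or dropped. Rpl41, a very short basic peptide, had 6412 and 5448 CPM in young and 4131 and 4330.3 CPM in aged spleen, and 5391 and 4897 CPM in young and 3986 and 3162 CPM in aged muscle. Young muscle overlapped neither with young spleen nor with aged spleen and lay between them, and the tissue difference in young mice was -0.21 ± 0.15 (SE; edgeR adjusted p = 0.34).

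In aged mice the tissue difference went the same way but was smaller at the median. Of the 77 genes, 50 fell and 0 rose from aged spleen to aged muscle, while 9.27% of all genes fell and 9.57% rose, and the median was -0.59 against 0.03 for all genes. The calls took in 28 large and 22 small subunit genes, and libraries did not overlap for 72 genes, as for 32.4% of all genes. Among the other highly expressed genes 25% fell, with a median of -0.11. The count depended on single libraries: it was 17 without aged spleen replicate 1, 27 without aged spleen replicate 2 and 33 without aged muscle replicate 2, while the median stayed between -0.82 and -0.44 whichever library was left out. Of the 50 calls 16 held in all 16 alternative settings, against 46 of 67 in young mice, where the count without any 1 library lay between 46 and 70.

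Rps27, a zinc-binding protein of the small subunit, had the largest fall between the tissues in aged mice. It stood at 1605 and 1541 CPM in young and 1346 and 1225 CPM in aged spleen, and 946 and 809.7 CPM in young and 620.1 and 468 CPM in aged muscle. The groups did not overlap and stepped down in the order given, and the tissue difference was -1.24 ± 0.16 (SE; edgeR adjusted p = 0.00010) in aged and -0.84 ± 0.16 (SE; edgeR adjusted p = 0.0016) in young mice. Rps16, whose tail reaches the transfer RNA in the P site, stood at 3948 and 3739 CPM in young and 2668 and 2822 CPM in aged spleen, and 2145 and 1929.7 CPM in young and 1460.4 and 1214 CPM in aged muscle. The groups again stepped down without overlap, with tissue differences of -1.04 ± 0.14 (SE; edgeR adjusted p = 0.00018) in aged and -0.92 ± 0.14 (SE; edgeR adjusted p = 0.00035) in young mice. Rps15a (-1.09), Rpl30 (-1.09) and Rpl35a (-1.05) also fell by more than 1 on the log2 scale. At the other end, Rpl19, which forms a bridge to the small subunit, had 3234 and 3494 CPM in young and 2130.3 and 2138 CPM in aged spleen, and 2859.7 and 2548 CPM in young and 2305 and 1850.1 CPM in aged muscle. Aged spleen and aged muscle overlapped and their difference was -0.04 ± 0.15 (SE; edgeR adjusted p = 0.87). Rps12 (-0.13) and Rps2 (-0.19) did not pass the test in aged mice either.

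The comparisons of tissue at the 2 ages share no library. Across the 77 genes, which are not independent of one another and share the depth and composition of each library, Pearson's r between the 2 log2 fold changes was 0.62 and Spearman's rho 0.61, and 48 genes were called lower at both ages, which is 71.6% of the calls in young and 96.0% of those in aged mice.

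**Figure D4:**
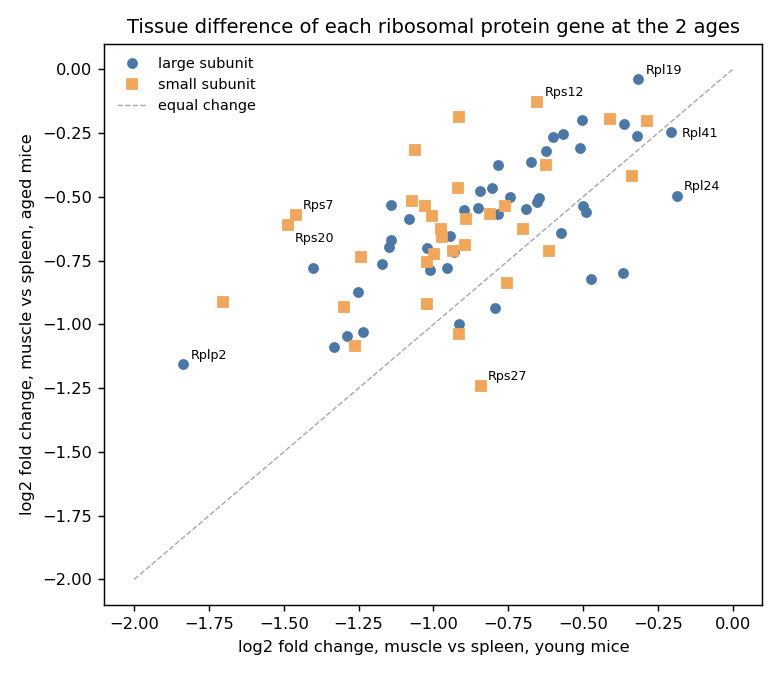
Log2 fold change from spleen to muscle of each gene in young mice (x axis) and in aged mice (y axis), for large subunit genes (circles) and small subunit genes (squares); the dashed line marks equal change. All 77 genes lie below 0 on each axis, most of them above the dashed line, with Rplp2 farthest to the left and Rps27 lowest.

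In the spleen, Tregs of mice older than 6 months had lower ribosomal protein mRNA levels than those of mice 2 months old. Of the 77 genes 38 fell and 0 rose with age, while 2.17% of all genes fell and 2.08% rose, and the median was -0.54 against 0.05 for all genes. The falls were spread over 20 of 45 large and 18 of 32 small subunit genes. Libraries of the 2 ages did not overlap, aged below young, for 74 genes, as for 24% of all genes, and 65 were lower at an unadjusted p under 0.05, as 7.53% of all genes were. Of the other highly expressed genes 9% fell, with a median of -0.15. These calls need all 4 spleen libraries: without young spleen replicate 1 or replicate 2 the count was 1, and without aged spleen replicate 1 or replicate 2 it was 0, while the median stayed between -0.58 and -0.51 whichever library was left out. In a fit of the spleen libraries alone, which tested 12374 genes, 72 of the ribosomal protein genes fell. The share of all genes that fell in that fit is not given here, and the 2.17% above belongs to the fit of all libraries.

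The largest falls with age in spleen were those of Rps7, at -0.97 ± 0.14 (SE; edgeR adjusted p = 0.00091), Rps28, at -0.95 ± 0.18 (SE; edgeR adjusted p = 0.0070), and Rps20, at -0.93 ± 0.20 (SE; edgeR adjusted p = 0.016). The level of Rps7 went from 2206 ± 126 CPM in young to 1126 ± 5.41 CPM in aged spleen (SD, n = 2). Rps28, a small protein near the exit of the messenger RNA channel, had 3474 and 3235 CPM in young and 1891 and 1584 CPM in aged spleen, and 1829 and 1365 CPM in young and 1397 and 1032 CPM in aged muscle. Its young spleen libraries lay far above all others, and aged spleen overlapped with young muscle. Rpl4, which reaches into the tunnel through which the new protein leaves, had 6574 and 5138 CPM in young and 3074 and 3422 CPM in aged spleen, and 3985 and 3361 CPM in young and 2716 and 2334 CPM in aged muscle. Young spleen was highest, aged spleen and young muscle overlapped and aged muscle was lowest, with an age difference in spleen of -0.85 ± 0.16 (SE; edgeR adjusted p = 0.0063). Rpl35, at the mouth of that tunnel, changed by -0.81 ± 0.20 (SE; edgeR adjusted p = 0.038). In the annotation 66.2% of the exonic bases of Rpl35 lie opposite or within other genes, and the strand setting of the counting is not given, so its counts are uncertain.

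Rpl26, Rpl24 and Rpl37 lay furthest above the median of the ribosomal protein genes in this comparison. Rpl26, which in human cells binds the mRNA of p53, had 1173 and 1180.2 CPM in young and 1231 and 1176 CPM in aged spleen, and 939 and 755 CPM in young and 751 and 611 CPM in aged muscle. The spleen libraries of the 2 ages lay together, above all muscle libraries. Its age difference in spleen was 0.03 ± 0.15 (SE; edgeR adjusted p = 0.95), and it was the only gene of the 77 with its highest group mean in aged spleen. Rpl24 changed by -0.01 ± 0.20 (SE; edgeR adjusted p = 0.99) and Rpl37 by -0.22 ± 0.17 (SE; edgeR adjusted p = 0.58).

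Among the genes known for a role of their own, the 5S particle proteins Rpl5 and Rpl11, which join the 5S ribosomal RNA and bind the p53 regulator Mdm2 when free of the ribosome, both fell with age in spleen. Rpl5 stood at 1922 and 1785 CPM in young and 1155 and 1156 CPM in aged spleen, and 813 and 745 CPM in young and 669 and 594 CPM in aged muscle. The groups did not overlap and stepped down in that order, with an age difference in spleen of -0.68 ± 0.14 (SE; edgeR adjusted p = 0.011) and a tissue difference in young mice of -1.25 ± 0.14 (SE; edgeR adjusted p = 1.7e-05). Rpl11 changed by -0.61 ± 0.15 (SE; edgeR adjusted p = 0.031) with age in spleen and by -0.66 ± 0.15 (SE; edgeR adjusted p = 0.0061) between tissues in young mice. Rps6, the ribosomal target of the S6 kinases downstream of mTORC1, stood at 2327 and 2341 CPM in young and 1319 and 1582 CPM in aged spleen, and 1132 and 1105 CPM in young and 1297 and 1036 CPM in aged muscle. Young spleen was highest, aged spleen next, and the muscle groups overlapped, with an age difference of -0.69 ± 0.15 (SE; edgeR adjusted p = 0.017) in spleen and 0.06 ± 0.15 (SE; edgeR adjusted p = 0.88) in muscle. Rps19, the gene most often mutated in Diamond-Blackfan anaemia, changed by -0.64 ± 0.15 (SE; edgeR adjusted p = 0.026) with age in spleen and Rps3, which lies at the messenger RNA entry, by -0.57 ± 0.15 (SE; edgeR adjusted p = 0.049). Rpsa, which also gives rise to a laminin receptor of the cell surface, stood at 11142 and 9647 CPM in young and 6134 and 6705 CPM in aged spleen, and 8114 and 7527 CPM in young and 6045 and 5189.9 CPM in aged muscle. Unlike most of the genes, its young muscle libraries lay above its aged spleen libraries, and its age difference in spleen was -0.70 ± 0.14 (SE; edgeR adjusted p = 0.011). Rps4x, on the X chromosome, changed by -0.63 ± 0.14 (SE; edgeR adjusted p = 0.020).

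The fusion genes Rps27a, made with ubiquitin, and Fau, made with a ubiquitin-like protein, did not pass the test with age in spleen, with -0.42 ± 0.16 (SE; edgeR adjusted p = 0.17) and -0.44 ± 0.14 (SE; edgeR adjusted p = 0.11). Nor did Rpl22, without which alpha-beta T cells of mice fail to develop, at -0.26 ± 0.21 (SE; edgeR adjusted p = 0.60), or Rpl38, which in mouse embryos favours translation of Hox mRNAs, at -0.48 ± 0.18 (SE; edgeR adjusted p = 0.16). Rpl10, which joins the large subunit late in its maturation, and Rpl13a, which in human myeloid cells also acts in a complex that represses translation, gave -0.28 ± 0.15 (SE; edgeR adjusted p = 0.38) and -0.30 ± 0.16 (SE; edgeR adjusted p = 0.36). Between tissues in young mice, by contrast, Rps27a changed by -0.92, Rpl10 by -1.03, Rpl38 by -0.65 and Rpl13a by -0.50, all past the test, while Fau (-0.34) and Rpl22 (-0.57) did not pass it.

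In muscle, few of these genes passed the test for age. Of the 77, 2 fell (Rps27 and Rps16) and 0 rose, while 0.88% of all genes fell and 1.14% rose, and 4.4% of the other highly expressed genes fell. The median of the 77 was -0.30, against 0.03 for all genes and -0.20 for the 500 other highly expressed genes, which thus shifted the same way. Of the 77, 73 lay below 0 and 33 were lower at an unadjusted p under 0.05, as 7.69% of all genes were. Libraries did not overlap, aged below young, for 37 genes, as for 20.3% of all genes. Where DESeq2 called 254 of all 14772 genes lower, it called 16 of the 77. The count was 0 in a fit of the muscle libraries alone, without any 1 of the 4 spleen libraries, without young muscle replicate 1 and without aged muscle replicate 2. It was 7 without young muscle replicate 2 and 21 without aged muscle replicate 1. The median without 1 library lay between -0.50 and -0.15.

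Rps27 changed by -0.69 ± 0.16 (SE; edgeR adjusted p = 0.038) with age in muscle and Rps16 by -0.61 ± 0.14 (SE; edgeR adjusted p = 0.040). Over the alternative settings their adjusted p ranged from 8.7e-05 to 0.31 and from 1.4e-05 to 0.32. Rpl37a, a zinc-binding protein of the large subunit, had 1978 and 1893 CPM in young and 1719 and 1389 CPM in aged spleen, and 1728 and 1274 CPM in young and 1053 and 736 CPM in aged muscle. Aged muscle lay below all other libraries, but the age difference of -0.75 ± 0.19 (SE; edgeR adjusted p = 0.066) did not pass the test. Fau (-0.52), Rpl4 (-0.54) and Rpl41 (-0.53) did not pass it either. In the other direction lay Rpl3, a protein near the catalytic centre, at 0.21 ± 0.15 (SE; edgeR adjusted p = 0.54), Rps2 at 0.11 ± 0.16 (SE; edgeR adjusted p = 0.80) and Rps6 at 0.06 ± 0.15 (SE; edgeR adjusted p = 0.88). Rps7, Rps20 and Rplp2, among the largest falls elsewhere, gave -0.08, -0.05 and -0.06 here.

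The age effect in muscle minus that in spleen had a median of 0.25 over the 77 genes, against -0.04 over all genes. Of the 77, 1 passed the test of this difference as higher (Rps7) and 0 as lower (13 and 0 at an unadjusted p under 0.05, where 5.9% of all genes were higher and 7.1% lower), while 1.35% of all genes were higher and 1.17% lower. Rps7 fell with age from 2206 ± 126 to 1126 ± 5.41 CPM in spleen and stood at 802 ± 49.8 and 759 ± 86.8 CPM in young and aged muscle (SD, n = 2), and the difference of the age effects was 0.89 ± 0.20 (SE; edgeR adjusted p = 0.026). It lost the call without any 1 of the 4 spleen libraries and without either young muscle library, with an adjusted p between 0.062 and 0.28 there. DESeq2 called 8 of the 77 genes higher, and 256 of all 14772 genes. Rps20 (0.87) and Rps6 (0.75) were among the next highest after Rps7 and did not pass the test, and Rpl37a (-0.43), Rps27 (-0.40) and Rpl26 (-0.35) lay at the other end. The age comparisons in muscle and spleen share no library; across the 77 genes Pearson's r between their log2 fold changes was -0.05 and Spearman's rho 0.02, 72 genes had the same sign and 0 were called in both.

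By group mean, 58 of the 77 genes had both spleen groups above both muscle groups and, within each tissue, young above aged, as had 10.2% of all genes tested. Another 14 had young muscle above aged spleen in an otherwise like order, as had 3.93% of all genes, among them Rpsa, Rpl41, Rpl19 and Rplp0. For 76 genes young spleen was the highest group and for 73 aged muscle the lowest, against 27.9% and 26.5% of all genes. Both young spleen libraries stood above all 6 others for 74 genes, every spleen library stood above every muscle library for 47, and both aged muscle libraries stood below all 6 others for 35, while the shares of all genes were 12%, 14.6% and 8.7%. Levels and changes were weakly related across the genes: Spearman's rho with the mean CPM was 0.36 for the tissue difference in young mice and 0.44 in aged mice, and -0.28 for the age difference in each tissue.

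The pyrimidine run at the start marked no clear division among the genes. The few windows printed above hold it mostly among the genes of large change. They are a small choice of the matched genes, however, and were picked by the size of change in single comparisons. In the tissue comparison of young mice the median log2 fold change was -0.92 for the 32 tested genes with a run in the window and -0.79 for the 25 without, and with age in spleen it was -0.60 and -0.49. Genes with CCGGAAG and without it had medians of -0.85 and -0.85 in the tissue comparison of young mice. Rpl5, whose window held no run, changed by -1.25 between tissues in young mice, and Fau, whose window held several, by -0.34.

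Other genes of protein synthesis were followed through lists drawn up beside the ribosomal proteins. Their counts stand against the 10.9% of all genes tested that fell and 11.4% that rose from spleen to muscle in young mice, and the 9.27% and 9.57% in aged mice. Among 15 translation genes whose mRNAs have a TOP start, 9 (60%) fell from spleen to muscle in young mice and 9 in aged mice, with medians of -0.65 and -0.50, and 0 rose. Eef1g, a subunit of the elongation factor that loads transfer RNAs, changed by -1.24 ± 0.17 (SE; edgeR adjusted p = 8.5e-05) in young and -0.80 ± 0.16 (SE; edgeR adjusted p = 0.0039) in aged mice. Eif4b, an initiation factor that assists unwinding of mRNA, changed by -1.11 ± 0.20 (SE; edgeR adjusted p = 0.0012) and -1.21 ± 0.20 (SE; edgeR adjusted p = 0.00083). With age in spleen 3 of the 15 fell (Gnb2l1, which encodes the ribosome-bound scaffold Rack1, -0.69; Eef1g, -0.64; and Tpt1, -0.58) and with age in muscle 0, where 5 were lower at an unadjusted p under 0.05 and DESeq2 called 3 lower. Of 31 other initiation factors, 7 (22.6%) fell between tissues in young mice and 3 (Eif3b, Eif3d and Eif4g1; 9.68%, close to the share of all genes) in aged mice, with medians of -0.34 and -0.31, and edgeR called 0 with age in either tissue. At an unadjusted p under 0.05, 5 of these were lower with age in spleen, and 2 were lower and 1 higher with age in muscle, while DESeq2 called 1 lower in spleen and 0 in muscle.

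Of 56 factors that build ribosomes, 20 (35.7%) fell and 1 rose (Nol10) from spleen to muscle in young mice, and 11 (19.6%) fell and 1 rose (Noc3l) in aged mice, with medians of -0.67 and -0.51. In young mice the helicase Ddx18 changed by -1.95 ± 0.27 (SE; edgeR adjusted p = 0.00013), Wdr43 by -1.68 ± 0.26 (SE; edgeR adjusted p = 0.00027) and Nle1 by -2.36 ± 0.37 (SE; edgeR adjusted p = 0.00035). With age in spleen 0 of the 56 passed edgeR's test, 5 were lower and 2 higher at an unadjusted p under 0.05, DESeq2 called 1 lower and the median was -0.14. With age in muscle Noc3l rose (2.33) and 0 fell, and DESeq2 called 1 higher and 0 lower. At an unadjusted p under 0.05, 6 of the 56 were higher and 1 lower, as were 1122 and 1136 of all 14772 genes. Of 14 genes of RNA polymerase I, which makes ribosomal RNA, and its factors, Taf1c fell in young mice (-0.98), a share of 7.14% that is below that of all genes, and Taf1c, Ubtf and Polr1a (21.4%) fell in aged mice. DESeq2 called 0 of the 14 lower in young and 2 in aged mice. With age edgeR and DESeq2 called 0 in either tissue, and 2 in muscle and 0 in spleen were lower at an unadjusted p under 0.05.

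Of 22 genes of mTORC1 signalling, Larp1 and the Myc network, 2 rose (Sesn2 and Deptor) and 5 fell (Larp1, Sesn3, Sesn1, Max and Rptor; 22.7%) between tissues in young mice, and 1 rose (Sesn2) and 6 fell (27.3%) in aged mice; the rises are no larger a share than among all genes. Larp1 itself had 433 ± 44.7 CPM in young and 257 ± 1.40 CPM in aged spleen (SD, n = 2), and 158 ± 5.57 CPM in young and 188 ± 38.3 CPM in aged muscle. It changed by -0.75 ± 0.17 (SE; edgeR adjusted p = 0.018) with age in spleen and by -1.46 ± 0.17 (SE; edgeR adjusted p = 2.7e-05) from spleen to muscle in young mice. Its age effects differed by 1.01 ± 0.24 (SE; edgeR adjusted p = 0.036). Deptor, an inhibitor of mTOR, rose with age in both tissues, from 7.23 ± 0.356 to 34.4 ± 8.87 CPM in spleen and from 19.04 ± 1.33 to 49.7 ± 5.02 CPM in muscle. Its log2 fold changes with age were 2.25 ± 0.35 (SE; edgeR adjusted p = 0.0017) and 1.38 ± 0.33 (SE; edgeR adjusted p = 0.040). Sesn1, which restrains mTORC1 when amino acids are short, fell with age in spleen, where it changed by -1.07 ± 0.18 (SE; edgeR adjusted p = 0.0027), and Ddit4, another inhibitor induced by stress, fell with age in muscle, where it changed by -0.82 ± 0.16 (SE; edgeR adjusted p = 0.015). Between the tissues in young mice Sesn3 changed by -1.82 ± 0.22 (SE; edgeR adjusted p = 3.3e-05) and Sesn2 by 2.02 ± 0.27 (SE; edgeR adjusted p = 0.00011). Kinase activity was not measured.

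**Figure D5:**
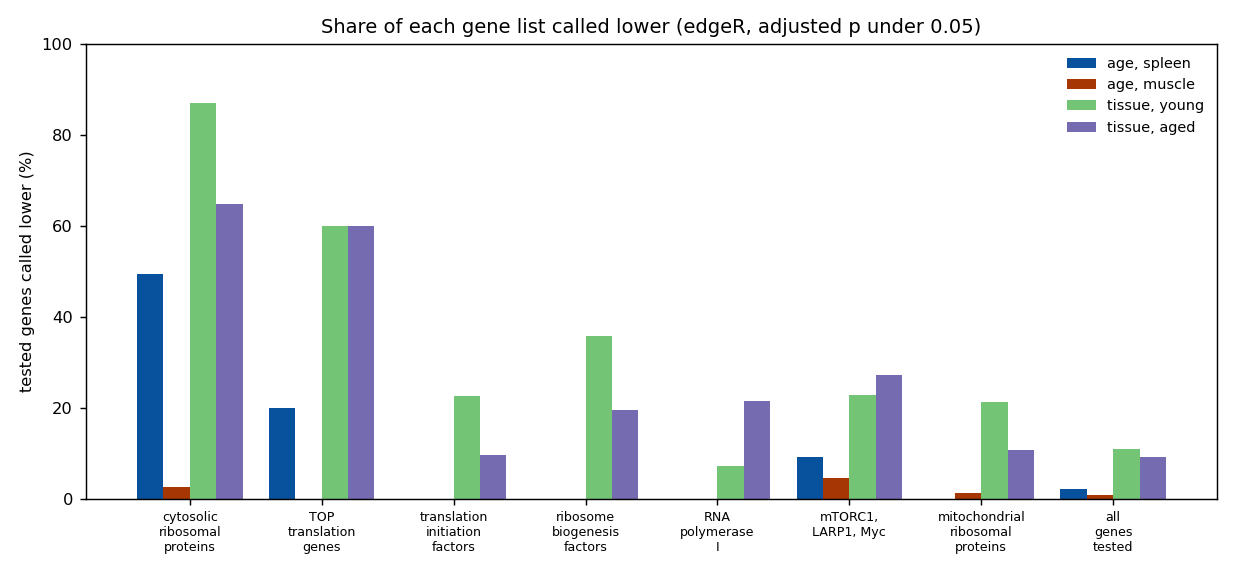
Share of the tested genes of each list that passed the test as lower (y axis, percent, from 0) in the 4 comparisons given by colour, for the ribosomal protein genes, 6 other lists and all genes tested. The ribosomal protein genes reach 49.4% with age in spleen and 87.0% between tissues in young mice, where all genes reach 2.17% and 10.9%.

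Markers of other cells moved with some of the groups. The 5 B cell markers summed to 104 and 88.0 CPM in young and 341 and 396 CPM in aged spleen, and to 108 and 95.9 CPM in young and 335 and 262 CPM in aged muscle. In the aged libraries most of this sum was Cd74, the chaperone of class II molecules, which rose with age by 2.91 in spleen and 2.14 in muscle on the log2 scale. The others did not pass the test or were not tested. Cd79b changed by -0.18 and -0.02, Cd79a by 1.51 and -1.11, and Ms4a1 by 1.00 and 0.85. The 9 myeloid markers reached 410 CPM in young muscle replicate 1 and lay between 35.6 and 148 CPM in the other 7 libraries. The 5 erythroid and platelet markers summed to 58.9 and 22.5 CPM in young and 112 and 150.3 CPM in aged spleen, to 116 CPM in young muscle replicate 1 and to between 4.10 and 11.4 CPM in the other 3 muscle libraries. The 6 fibroblast and endothelium markers summed to 336 and 353 CPM in young and 155 and 182 CPM in aged spleen, and to 528 CPM in young muscle replicate 1 and 177 to 231 CPM in the other 3 muscle libraries. In every library but young muscle replicate 1 most of this sum was Pecam1, an adhesion molecule of endothelium and also of blood cells, which changed by -1.03 ± 0.19 (SE; edgeR adjusted p = 0.0066) with age in spleen, while Col1a1 stood at 150.5 CPM in young muscle replicate 1 and at 15.0 CPM or less elsewhere. CD8 T cell and NK cell markers summed to at most 16.8 and 9.31 CPM, with the NK cell receptors Ncr1 and Klra8 at 0 in 5 libraries each. Their part in the results was not tested, nor was that of the number of genes detected. Leaving out young muscle replicate 1 could not test the part of these markers. That library was above replicate 2 for 77 of the 77 genes, so the young muscle level drops without it in any case.

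Counting could blur some of the genes. Of the 78, 27 share exonic bases with another gene on the same strand in GENCODE M21, in most cases a small nucleolar RNA, with 47.0% for Rpl24 as the highest value, 35.4% for Rpl13a and 20.6% for Rps10. The table also holds 221 rows of ribosomal protein pseudogenes, for 53 of the 78 genes. They held 4723 counts in all, 0.167% of the 2821709 on the genes themselves. How reads that match a gene and its pseudogenes were treated is not given in the sources used here.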

How the data were processed

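RNA sequencing of sorted mouse Tregs gave 8 libraries in 4 groups of 2. The authors deposited the counts as integers per gene symbol (38406 symbols), without normalizing them. Per the submitters' processing notes the tools included TopHat2, HTSeq, Picard and SAMtools 0.1.19 with build mm10, while the annotation, the strand setting and the treatment of reads with several matches were not stated in the sources read. Amplified reads without molecular identifiers are not independent molecules. The 37 mitochondrially encoded rows hold 0 counts.

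Counts of 14772 genes past filterByExpr were scaled by TMM and fitted over all 8 libraries with 1 coefficient per group in edgeR 4.0.16 (quasi-likelihood, robust; R 4.3.3), with 5 contrasts and Benjamini-Hochberg adjustment over all genes at 0.05; the standard error is the log2 fold change over the root of F. The fit was tested on simulated data. Coordinates and exon lengths come from GENCODE M21 (GRCm38), promoters from RefSeq (GRCm38.p6). Alternatives were other scalings (also TMM without the ribosomal protein rows), no filter, DESeq2 1.42.0, only the groups compared, a replicate block and each library left out. Ribosomal protein genes named are, per comparison, the 6 called with the largest change and the 3 furthest from the median each way, the 6 highest and 4 lowest, and a fixed set; of other lists, the 3 of smallest p. Some genes that the rule names are not reported here. Where edgeR called 5 or fewer genes, they are named. Genes, lists and tests were chosen with earlier results of these data known.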

Additional observations from a re-analysis of the deposited data

Results flagged for a closer look

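Rps7, a protein of the small subunit, changed with age differently in the 2 tissues by the test of the difference itself: the log2 fold change in muscle minus that in spleen was 0.89 ± 0.20 (SE; edgeR adjusted p = 0.026). It fell with age in both aged spleen libraries relative to both young ones (-0.97), whereas the muscle libraries of the 2 ages overlapped (-0.08). Its adjusted p over the alternative settings lay between 7.9e-06 and 0.28. Groups of 2 libraries are too small for a test of outlying samples.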

How the results depend on the processing

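Of 3397 values of named ribosomal protein genes under the alternative settings, 3030 stayed on their side of the threshold, 166 passed it newly and 201 no longer passed it. The sign changed in 75 of the 3030, all of which failed the test both as reported and under the alternative, with reported values of at most 0.33 in size; 0 values past the test as reported changed sign. Genes lower with age in muscle, 2 as reported, numbered 5 with no filter, 16 by DESeq2, 0 in a fit of only the groups compared, and 0 to 21 with 1 library left out, where the median ran from -0.50 to -0.15. Genes lower with age in spleen, 38 as reported, numbered 72 in a fit of only the groups compared and 0 to 55 with 1 library left out, with a median of -0.58 to -0.51; scaling by library size alone gave a median of -0.38 with the median of all genes at 0.21 (0.15 with age in muscle and 0.18 between tissues in young mice). Genes higher in the difference of the age effects, 1 as reported, numbered 3 with scaling by library size, 2 with no filter, 8 by DESeq2 and 0 to 7 with 1 library left out, with a median of 0.076 to 0.41. Between tissues, 46 to 70 genes were lower in young mice and 17 to 66 in aged mice with 1 library left out, with medians of -1.02 to -0.74 and -0.82 to -0.44. Shares of counts without the 10 most-counted genes were 14.4%, 10.9%, 8.59% and 7.39%. With TMM computed without the ribosomal protein rows, 35 genes fell with age in spleen and 67 and 51 between tissues in young and aged mice. The cause of these shifts was not tested beyond what the smaller number of libraries sets.

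The replicate numbers are not shown to pair libraries (correlations of deviations over all genes from -0.07 to 0.26). With a replicate block, 11 genes were lower with age in muscle, 53 with age in spleen, 71 and 63 between tissues in young and aged mice, and 5 higher in the difference of the age effects. With 2 libraries a group, a p that misses the threshold does not show that levels were alike.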

Other observations

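Mitochondrial ribosomes are built from a separate set of nuclear genes. Of the 75 tested, 16 (21.3%, against 10.9% of all genes tested) fell and 3 (Mrpl54, Mrpl4 and Mrpl33) rose from spleen to muscle in young mice, and 8 (10.7%, close to the 9.27% of all genes) fell and 3 (Mrpl33, Mrpl19 and Mrpl4) rose in aged mice, with medians of -0.34 and -0.31. Mrpl38 changed by -1.81 ± 0.35 (SE; edgeR adjusted p = 0.0019) and Mrpl22 by -1.13 ± 0.26 (SE; edgeR adjusted p = 0.0056) in young mice, while Mrpl54 changed by 1.00 ± 0.23 (SE; edgeR adjusted p = 0.0063). With age in spleen, 0 of the 75 passed edgeR's test and DESeq2 called 0. At an unadjusted p under 0.05, 5 were lower and 0 higher there, as were 1113 and 1347 of all 14772 genes. With age in muscle 1 fell (Mrpl34, -0.97), a share of 1.33% against 0.88% of all genes. At an unadjusted p under 0.05, 7 were lower and 3 higher there, as were 1136 and 1122 of all genes.

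Paralogs of ribosomal proteins outside the symbol rule did not all go with the main genes. Rps27l, which p53 induces in human cells, was higher in muscle than in spleen, by 0.86 ± 0.27 (SE; edgeR adjusted p = 0.031) in young and 0.78 ± 0.26 (SE; edgeR adjusted p = 0.047) in aged mice, where Rps27 changed by -0.84 and -1.24. Rpl22l1 fell from spleen to muscle in young mice (-1.14, edgeR adjusted p = 0.0043), where Rpl22 did not pass the test (-0.57). Of 5 host RNAs of small nucleolar RNAs, which like ribosomal protein genes begin with a TOP start, Snhg5 rose from spleen to muscle in young mice by 1.47 ± 0.23 (SE; edgeR adjusted p = 0.00037), and Gas5 and Snhg12 changed by -0.57 and -1.10.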
